A study of Rattus norvegicus with 10 samples.

Results

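Arntl, Clock, Npas2, Rora, Bhlhe40 and Bhlhe41 encode the activators of the circadian clock, a ROR receptor and the DEC repressors, and they were taken by gene name from the 22250 genes of a read count table of rat lung. All 6 were in the table and all 6 passed the low-count filter. The table holds 10 RNA sequencing libraries, 5 named MOD and 5 named XBS. The series describes rats in which neutrophilic asthma was induced with lipopolysaccharide and ovalbumin, followed by a formula called SP. Neither library name is expanded in the labels or tied to SP, and the sources used here give no strain, age, dose or time of day of tissue collection, so the 2 groups are compared by name as XBS against MOD, and what both share cannot be stated beyond lung tissue. The labels also list a human bronchial epithelial cell line, 16HBE, while the table carries rat gene identifiers and 9 markers of alveolar type 2 cells summed to between 16932 and 34176 CPM, the counts scaled to a common library size per 1e6 reads, in every library. The labels name no animals. The p-values therefore measure only the spread among libraries, part of which may be technical.

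In the mammalian clock, BMAL1 (the product of Arntl) pairs with CLOCK, or with its relative NPAS2, and the pair switches on genes that carry E-box sequences in their regulatory DNA. Among these are the period and cryptochrome genes, whose proteins inhibit the pair, and the REV-ERB genes Nr1d1 and Nr1d2. REV-ERB proteins and ROR receptors compete for the same sequence, the ROR response element (RORE): RORs activate and REV-ERBs repress, and Arntl is the classical gene under this control. DEC1 (Bhlhe40) and DEC2 (Bhlhe41) are themselves induced through E-boxes and bind E-boxes as repressors. The lung has its own clock, well known in the club cells of the airway.

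The start-site windows of Arntl and of the DEC genes held different motifs, and sequences outside these windows were not searched. RefSeq start-site windows (build GRCr8, 250 bases before to 50 after each start) were found for all 6 members, with Arntl listed there as Bmal1 and Clock given 2 windows. The stretch of Arntl is printed because it was the only one of the 7 windows to hold a full RORE, and the DEC stretches because they held the E-box CACGTG. Capitals mark the RORE and its near copy in Arntl and the E-box in the others.
Arntl, chr1:176766078-176766327, plus strand: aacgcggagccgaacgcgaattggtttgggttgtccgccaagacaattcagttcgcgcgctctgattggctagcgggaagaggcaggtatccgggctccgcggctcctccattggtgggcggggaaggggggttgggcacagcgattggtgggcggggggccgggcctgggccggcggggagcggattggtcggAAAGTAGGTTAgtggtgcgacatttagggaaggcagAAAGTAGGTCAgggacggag
Bhlhe40, chr4:143174205-143174264, plus strand: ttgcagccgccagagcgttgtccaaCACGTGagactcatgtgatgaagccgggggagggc
Bhlhe41, chr4:180569369-180569428, minus strand: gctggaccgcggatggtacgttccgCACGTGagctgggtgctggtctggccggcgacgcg
The RORE of Arntl runs from base -20 to -10 relative to the start. A second stretch of 11 bases, from -56 to -46, differs from it by C10T, counted from 1 at its 5′ end. The CACGTG of Bhlhe40 begins at -220 and that of Bhlhe41 at -48. Among 33465 start-site windows of the same length in RefSeq, 0.356% held a RORE and 6.42% held CACGTG. The windows of Clock, Npas2 and Rora held none of the 6 motifs searched on both strands. Besides RORE and CACGTG these were AGGTCA, which can form the end of a RORE and was in 16.2% of all windows, and the E-box variant CACGTT, in 4.83%. The last 2 were the D-box TTATGTAA, in 0.893%, and its variant TTACGTAA, in 0.12%. These matches describe letters in a window and show no binding.

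Libraries held 11998979 to 15518929 counts, and the clock genes sat among wider differences between libraries. Of 14320 genes tested with edgeR, 11 passed an adjusted p of 0.05 (Benjamini-Hochberg over all tested genes), 4 higher and 7 lower in XBS. XBS 2 and XBS 3 stood apart in airway markers, with 8 club cell markers summing to 2642 and 2840 CPM against 8191 to 12546 CPM in the other libraries. In the marker lists of ciliated, club, alveolar type 1, alveolar type 2, endothelial and erythroid cells, 8 of 9, 6 of 7, 10 of 10, 7 of 9, 7 of 8 and 5 of 5 tested genes had a negative fold change, and 1 gene, Cyp4b1 of club cells, passed. In those of smooth muscle, neutrophils, macrophages, T cells, B cells, fibroblasts, cardiac muscle and thymus, 7 of 7, 9 of 9, 7 of 7, 7 of 8, 6 of 6, 4 of 6, 3 of 5 and 1 of 3 had a positive one, and 0 passed. Over all tested genes 48.1% had a negative fold change. In bulk tissue, fewer cells of a type and less RNA per cell cannot be told apart.

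Per length of transcript, Bhlhe40 was the most abundant member and Rora the least. In MOD the deposited FPKM (fragments per kilobase of transcript, scaled to the library total) averaged 19.4 ± 3.45 for Bhlhe40, 17.5 ± 1.83 for Arntl, 13.2 ± 1.39 for Clock, 11.0 ± 1.61 for Npas2, 9.41 ± 2.55 for Bhlhe41 and 2.27 ± 0.562 for Rora (SD, n = 5). In XBS the levels were 23.5 ± 3.98, 10.6 ± 2.01, 11.2 ± 0.948, 9.10 ± 1.98, 10.4 ± 3.66 and 2.12 ± 0.55 FPKM in the same order of genes. Arntl exceeded Clock in 5 of 5 MOD libraries and in 2 of 5 XBS libraries. Bhlhe40 exceeded Arntl in 3 of 5 MOD and 5 of 5 XBS libraries, and Npas2 exceeded Bhlhe41 in 4 of 5 and 2 of 5, so these neighbours were not separated in every library. Rora lay below Bhlhe41 in 10 of 10 libraries. The deposited gene model of Rora covers 90309 bases of chromosome 8 with a transcript length of 1690, and reads outside it were not counted.

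**Figure D1:**
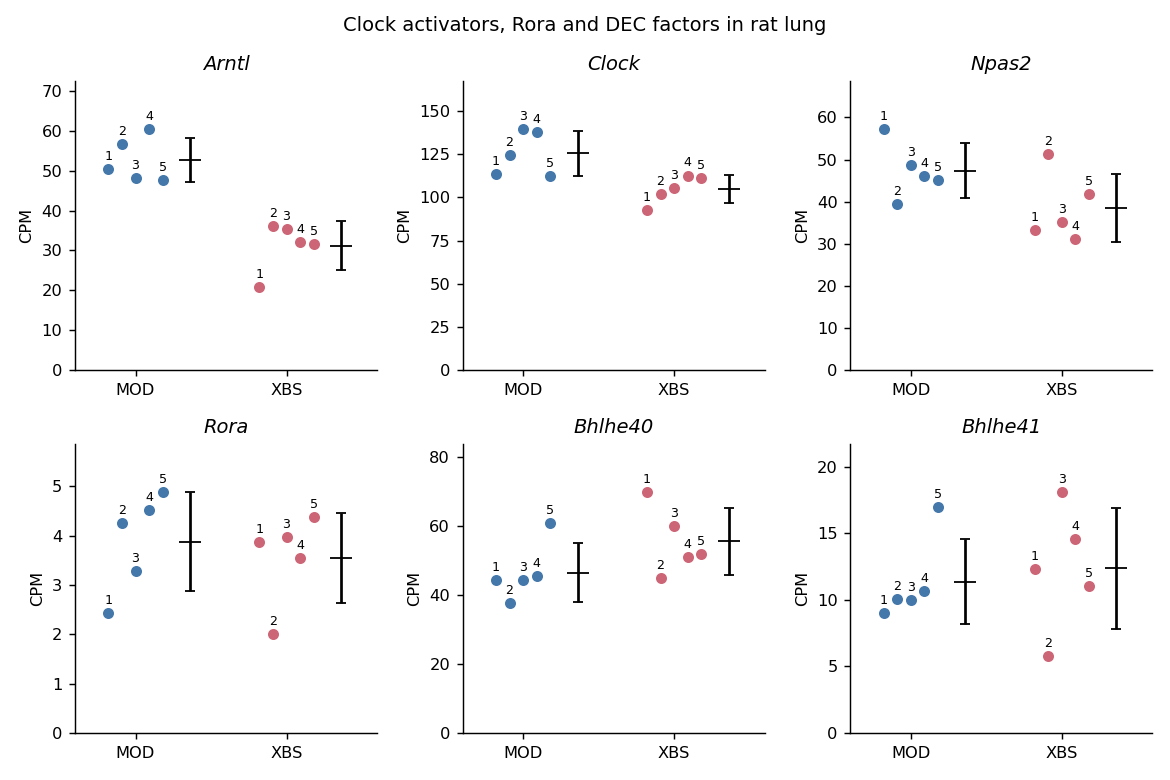
Expression of the 6 members in CPM on the vertical axes, with 1 point per library marked by its replicate number, MOD in blue and XBS in red, and bars for the mean and SD of 5 libraries. The groups are separate for Arntl, with XBS between 20.8 and 36.1 and MOD between 47.7 and 60.4 CPM, and overlap in the other panels.

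Arntl, the obligate partner in the activating complex, was the member that differed most between the groups, at a level 1.69-fold lower in XBS, but it did not pass the threshold over all genes. MOD 1 to 5 stood at 50.4, 56.7, 48.1, 60.4 and 47.7 CPM, and XBS 1 to 5 at 20.8, 36.1, 35.3, 32.1 and 31.6 CPM. Every XBS library was below every MOD library, and XBS 1 was lowest by a wide margin. Means were 52.7 ± 5.61 and 31.2 ± 6.13 CPM (SD, n = 5), a log2 fold change of -0.76 ± 0.14 (SE), or a 1.36- to 2.09-fold lower level at 95% confidence for this gene alone. Arntl ranked 32 of 14320 genes by p in the fit over all genes (edgeR adjusted p = 0.0858). Of the 6 members, 0 passed, where 0.0768% of all tested genes passed in either direction and 0.0489% passed as lower. Of the 6, 1 (Arntl) had groups that did not overlap with XBS lower, as had 1.13% of all tested genes.

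The call for Arntl turned on the tool. DESeq2 gave adjusted p = 0.000258 and limma voom with sample weights gave adjusted p = 0.0462, and by these tools 1.08% and 0.168% of the genes they tested passed as lower in XBS. Over 19 alternatives its log2 fold change stayed negative, between -0.90 and -0.64, and adjusted p ran from 0.000258 to 0.301. The value nearest 0 came without XBS 1, whose 253 counts were the fewest for Arntl (441 to 908 in the other libraries); edgeR then gave -0.64 with adjusted p = 0.077. Arntl (ENSRNOG00000014448) lies on chromosome 1 from 178039063 to 178137465 on the plus strand by the deposited coordinates, used throughout for the members; no source used here names the rat build.

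Endothelial and alveolar type 1 markers were also lower in many XBS libraries. The 9 endothelial markers in the table summed to 3374 to 4828 CPM in MOD and 2595 to 3807 CPM in XBS, with a median log2 fold change of -0.34 over 8 tested genes, 0 of which passed; Cldn5 had 0 counts in every library. The 10 alveolar type 1 markers summed to 7822 to 9189 CPM in MOD and 5247 to 8016 CPM in XBS, with a median of -0.34 and 0 past the threshold. Set against the summed endothelial markers, a scaling chosen after seeing the data, Arntl stood at 11.7 to 14.1 CPM per 1000 CPM in MOD and 8.01 to 10.02 in XBS. Against the alveolar type 1 markers it stood at 6.08 to 7.19 in MOD and 3.43 to 6.03 in XBS. The groups did not overlap on either scale, although the gap on the alveolar type 1 scale was narrow. Such a separation depends on the genes used as a scale, and no other of the 14 marker lists was used in this way. The part of tissue make-up in the Arntl values was not tested.

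Clock, the partner of BMAL1, was 1.2-fold lower in XBS and did not pass. It was at 113, 125, 139, 138 and 112 CPM in MOD 1 to 5 and at 92.5, 102, 105, 113 and 111 CPM in XBS 1 to 5. XBS 4 reached just above MOD 5, the lowest MOD library, so the groups touched at their edges. Means were 126 ± 13.0 and 105 ± 8.09 CPM (SD, n = 5), with a log2 fold change of -0.26 ± 0.084 (SE; edgeR adjusted p = 0.246) and a 1.05- to 1.36-fold lower level at 95% confidence. Clock and Arntl were the 2 of 6 members lower at an unadjusted p under 0.05, as were 5.78% of all tested genes. Clock (ENSRNOG00000002175; chromosome 14, 34446616 to 34502218, plus strand) was the most deeply counted member, with 1126 to 2076 counts per library.

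Npas2, which can stand in for CLOCK, overlapped between the groups. MOD 1 to 5 had 57.2, 39.5, 48.8, 46.1 and 45.2 CPM and XBS 1 to 5 had 33.2, 51.2, 35.2, 31.2 and 41.9 CPM. XBS 2 was higher than 4 of the 5 MOD libraries, while XBS 1, XBS 3 and XBS 4 lay below all of them. The log2 fold change was -0.30 ± 0.14 (SE; edgeR adjusted p = 0.406), with MOD at 47.4 ± 6.46 and XBS at 38.5 ± 8.16 CPM (SD, n = 5). Its interval ran from a 1.53-fold lower to a 1.01-fold higher level. Without XBS 2 the log2 fold change was -0.42 (adjusted p = 0.279).

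Because both partners were counted in the same libraries, Arntl could be set against Clock without any scaling between libraries. The log2 ratio of Arntl to Clock counts was -1.17, -1.14, -1.53, -1.19 and -1.23 in MOD 1 to 5 and -2.15, -1.50, -1.58, -1.81 and -1.81 in XBS 1 to 5. MOD 3 lay just below XBS 2, so the groups overlapped by 1 library. Group means were -1.25 ± 0.161 for MOD and -1.77 ± 0.255 for XBS (SD, n = 5), which differ by -0.52, or 0.698 times the MOD ratio (two-sided exact permutation p = 0.0159, and 0.0476 adjusted over 3 ratios; the smallest p that 252 assignments allow is 0.00794). With single libraries left out the difference stayed between -0.59 and -0.42. The adjusted exact permutation p was 0.0476 without MOD 3 or XBS 2 and 0.0714 to 0.0952 in the other 8 runs, where 126 assignments allow 0.0238 at best.

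The other ratios did not pass. Npas2 over Clock had means of -1.41 ± 0.269 for MOD and -1.46 ± 0.311 for XBS (SD, n = 5; difference -0.054, exact permutation p = 0.778, adjusted over 3 ratios 0.778). The highest values were -0.986 in MOD 1 and -0.995 in XBS 2, with -1.31 and -1.41 the next in each group. Bhlhe40 over Bhlhe41 had means of 2.05 ± 0.184 for MOD and 2.24 ± 0.509 for XBS (difference 0.193, exact permutation p = 0.476, adjusted 0.714). XBS libraries covered a range of 1.72 to 2.95 that held the whole MOD range of 1.84 to 2.29.

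**Figure D2:**
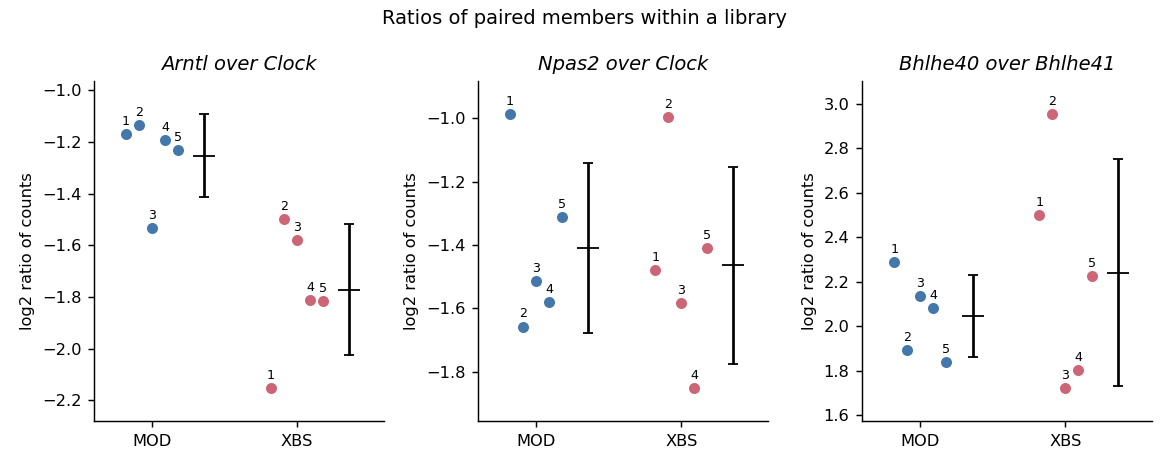
Log2 ratio of read counts of Arntl to Clock, Npas2 to Clock and Bhlhe40 to Bhlhe41 within each library (vertical axes, prior count 0.5), with points marked by replicate number and bars for the mean and SD of 5 libraries. For Arntl over Clock only MOD 3, at -1.53, reaches the XBS range of -2.15 to -1.50.

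Rora, the ROR receptor of the set, was weakly covered, and no difference was resolved. MOD 1 to 5 had 2.44, 4.25, 3.29, 4.52 and 4.89 CPM and XBS 1 to 5 had 3.86, 2.0, 3.97, 3.54 and 4.37 CPM. The groups overlapped almost completely, and XBS 2 and MOD 1 were the lowest libraries. With 27 to 69 counts per library, counting error alone gives a coefficient of variation of about 13.5% in MOD and 14.1% in XBS, against 25.8% observed in both. The log2 fold change was -0.13 ± 0.26 (SE; edgeR adjusted p = 0.854), and the 95% interval of the XBS level ran from 0.619 to 1.35 times that of MOD, so moderate differences either way were not resolved. Without XBS 2 the log2 fold change was 0.021.

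Rorb, another ROR receptor, was scarcely present. The gene, known from brain and retina, had 1 to 22 counts per library (MOD 0.783 ± 0.442 and XBS 0.721 ± 0.553 CPM, SD, n = 5; log2 fold change -0.10 ± 0.61, SE; edgeR adjusted p = 0.955). Without MOD 3 its log2 fold change was 0.28, and without XBS 1 or XBS 3 it was also positive. Rora (ENSRNOG00000027145) lies on chromosome 8 from 75516904 to 75607212 on the plus strand.

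Bhlhe40, the repressor DEC1, was on average 1.19-fold higher in XBS, opposite in sign to Arntl, and did not pass. MOD 1 to 5 stood at 44.3, 37.6, 44.2, 45.5 and 60.9 CPM and XBS 1 to 5 at 69.9, 45.01, 59.9, 50.9 and 51.9 CPM. XBS 1, lowest of all libraries for Arntl and Clock, was the highest for Bhlhe40. MOD 5 stood above 4 of the 5 XBS libraries. The log2 fold change was 0.25 ± 0.14 (SE; edgeR adjusted p = 0.455), from 46.5 ± 8.64 to 55.5 ± 9.62 CPM (SD, n = 5), with an interval of 0.958 to 1.49 times the MOD level. It ranged from 0.16 without XBS 1 to 0.37 without MOD 5, and was positive in all 19 alternatives. Bhlhe40 (ENSRNOG00000007152) lies on chromosome 4 from 140703619 to 140709319 on the plus strand.

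Bhlhe41, the repressor DEC2, was the most variable member among libraries. MOD 1 to 5 had 9.03, 10.1, 10.02, 10.7 and 17.0 CPM and XBS 1 to 5 had 12.3, 5.77, 18.1, 14.5 and 11.0 CPM. Both the lowest and the highest library of all 10 were XBS libraries, XBS 2 and XBS 3. The log2 fold change was 0.12 ± 0.28 (SE; edgeR adjusted p = 0.869), with MOD at 11.4 ± 3.20 and XBS at 12.4 ± 4.56 CPM (SD, n = 5), with an interval of 0.716 to 1.65 times the MOD level. Its coefficient of variation was 28.2% in MOD and 36.9% in XBS, where counting error accounts for about 7.89% and 7.53%. Without XBS 3 the log2 fold change was -0.058. Bhlhe41 (ENSRNOG00000048961) lies on the minus strand of chromosome 4 from 180232382 to 180234804.

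Macrophage and alveolar type 2 markers followed a similar order in some of these libraries. MOD 5 and XBS 3, the libraries with most Bhlhe41 in their groups, also had the highest sums of 8 macrophage markers (864 and 1126 CPM) and of the alveolar type 2 markers (32377 and 34176 CPM) in their groups. XBS 2, with the least Bhlhe41, had the lowest macrophage sum of the XBS libraries (806 CPM) and the highest neutrophil sum of all (921 CPM, against 334 to 571 CPM elsewhere, over 10 markers). Both lists were taken from 14 marker lists for this description. Fibroblast markers also summed highest of MOD in MOD 5 (5294 CPM) and lowest of XBS in XBS 2 (3669 CPM). Their highest XBS sum was in XBS 5 (8704 CPM), not in XBS 3. Other libraries departed from the order of Bhlhe41. MOD 4, with the second highest Bhlhe41 of MOD (10.7 CPM), had the lowest alveolar type 2 sum of MOD (25137 CPM). XBS 4, with 14.5 CPM of Bhlhe41, had a macrophage sum of 815 CPM. XBS 5, with 11.0 CPM of Bhlhe41, had the lowest alveolar type 2 sum of all (16932 CPM), below the 25587 CPM of XBS 2. Summed macrophage markers ranged from 666 to 864 CPM in MOD and from 806 to 1126 CPM in XBS. The part of these cells in the Bhlhe41 values was not tested.

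**Figure D3:**
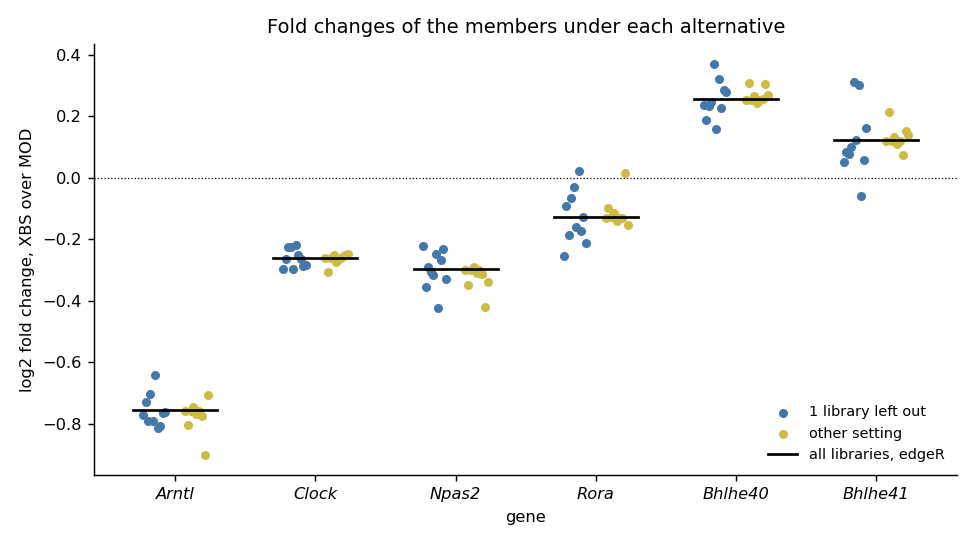
Log2 fold change of each member (vertical axis, XBS over MOD) with all libraries by edgeR (black line), with each of 10 libraries left out (blue points) and under the other 9 settings (yellow points). Arntl stays between -0.90 and -0.64, while points of Rora and Bhlhe41 cross 0.

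Genes downstream of the activators were taken as 13 genes known to be induced through E-boxes. Of these 13, 0 rose, 2 fell (Per1 and Cry1) and 11 did not pass by edgeR, and their median log2 fold change was 0.29 against 0.01 over all tested genes. Of the 13, 10 had a positive and 3 a negative fold change, where 48.1% of all tested genes had a negative one. The count turned on the tool: DESeq2 called 4 of the 13 higher (Nr1d1, Nr1d2, Dbp and Per3, with 1 gene given no adjusted p) and limma voom 3 (the same without Per3), where 1.5% and 0.3% of all genes they tested passed as higher, and both called Per1 and Cry1 lower. The same 4 had every XBS library above every MOD library, as had 1.61% of all tested genes. Per1, a period gene that other signals also induce, fell from 161 ± 21.4 to 75.0 ± 8.48 CPM (SD, n = 5; edgeR adjusted p = 0.00455), a call lost without MOD 4 and XBS 5 together (adjusted p = 0.0645). Nr1d1, the repressor that competes at ROREs, had MOD at 13.5 ± 8.67 and XBS at 87.8 ± 38.8 CPM (SD, n = 5; edgeR adjusted p = 0.0759, DESeq2 adjusted p = 7.13e-09). Its relative Nr1d2 was 2.83-fold higher on average (adjusted p = 0.0759 by edgeR and 7.65e-07 by DESeq2). Dbp, which encodes a transcription factor of the clock output, was 3.98-fold higher (0.104 and 4.92e-05 as adjusted p), and the period gene Per3 2.34-fold higher (0.124 and 0.00122 as adjusted p). Nampt, an enzyme of NAD synthesis, differed little (log2 fold change -0.05 ± 0.062, SE), and Wee1, a kinase that delays mitosis, had 0.25 ± 0.17 (SE); their adjusted p by edgeR were 0.75 and 0.546.

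The 5 tested genes of those known for RORE control had negative fold changes, as had 48.1% of all tested genes. They were Arntl, Clock, Npas2, Cry1 and Nfil3, with a median log2 fold change of -0.30 against 0.01 over all tested genes. By edgeR 0 rose, 1 fell (Cry1) and 4 did not pass. DESeq2 and limma voom called Arntl and Cry1 lower, where 1.08% and 0.168% of the genes they tested passed as lower. Arntl, Clock and Npas2 among these 5 are described above. Of the start-site windows searched, that of Arntl held a RORE and those of Clock, Npas2 and Nfil3 did not. No window was found for Cry1. Cry1, a clock repressor that carries both kinds of element, fell from 35.97 ± 7.34 to 16.8 ± 2.42 CPM (SD, n = 5; edgeR adjusted p = 0.0302), a call that did not hold when MOD 4, XBS 1, XBS 2 or XBS 3 was left out alone (adjusted p 0.0770 to 0.123). Nfil3, a repressor of clock output genes, was at 14.8 ± 2.77 and 12.2 ± 2.45 CPM (SD, n = 5, adjusted p = 0.484).

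**Figure D4:**
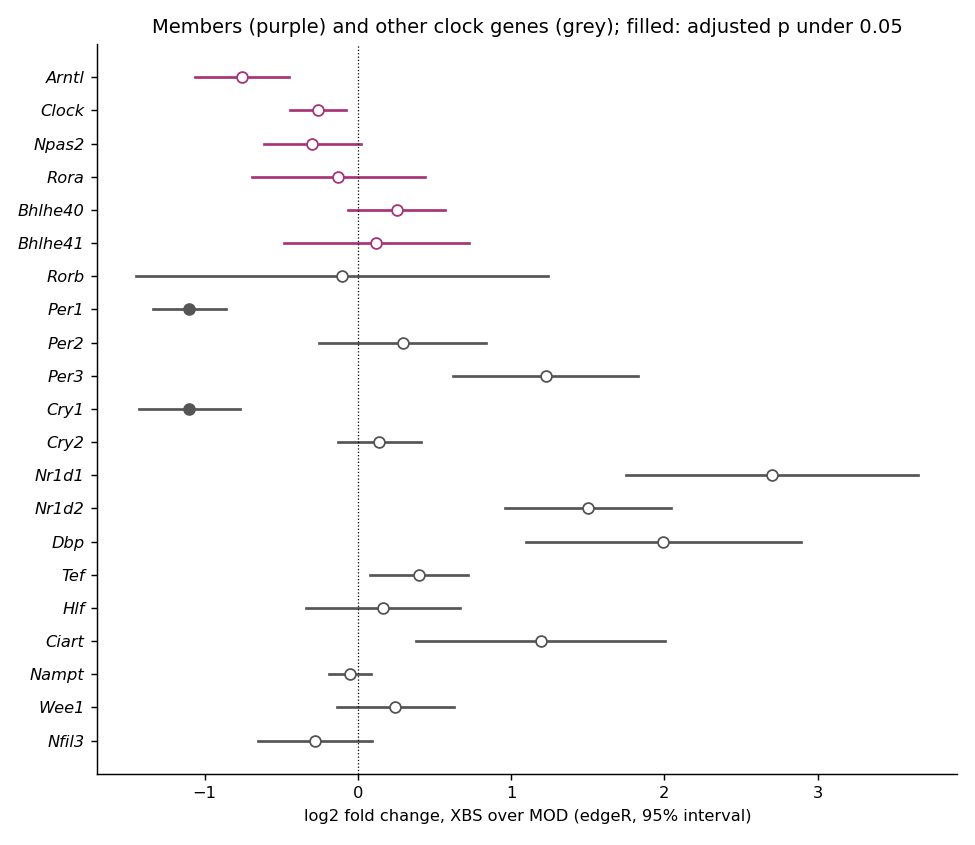
Log2 fold change of XBS over MOD (horizontal axis) with its 95% interval from edgeR, for the 6 members (purple), Rorb and the other listed E-box and RORE genes (grey), with filled points for adjusted p under 0.05. Arntl at -0.76 lies left of 0 without passing, and the filled points are Per1 and Cry1 at -1.10.

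Arntl and the REV-ERB gene Nr1d1 stood at opposite ends in XBS 1 and XBS 2 but not in every library. XBS 1 had the least Arntl (20.8 CPM) and the most Nr1d1 (147.1 CPM) and Dbp (127 CPM). Within MOD, MOD 3 had the most Nr1d1 (28.1 CPM) with 48.1 CPM of Arntl, while the lowest Arntl of 47.7 CPM was in MOD 5, at 14.6 CPM of Nr1d1. MOD 1 had the least Nr1d1 of all 10 libraries (6.95 CPM) and the third highest Arntl of MOD (50.4 CPM). Within XBS, XBS 2 had the least Nr1d1 (44.7 CPM) and the most Arntl (36.1 CPM). These genes share libraries and the group difference, so this is a description.

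**Figure D5:**
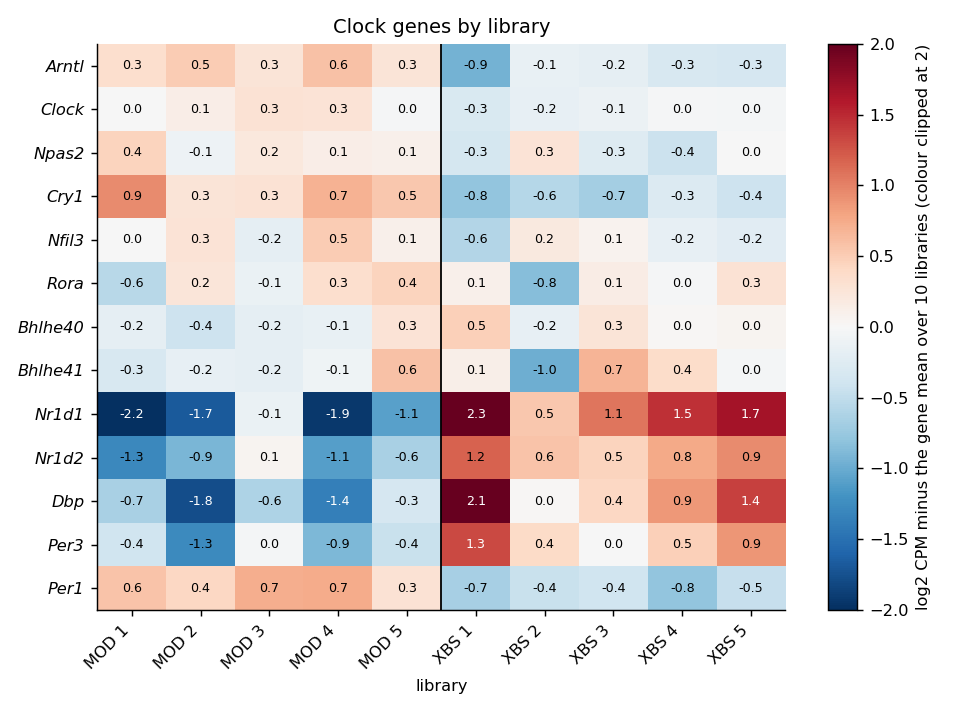
Log2 CPM of 13 clock genes (rows) in the 10 libraries (columns) minus each gene's mean, with red above and blue below the mean and the colour clipped at 2. The Arntl and Cry1 rows are positive in all 5 MOD and negative in all 5 XBS libraries, and the Nr1d1 row is negative in MOD and positive in XBS.

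Relatives of the members by protein family were examined next. Of 16 other genes of the bHLH-PAS family, to which ARNTL, CLOCK and NPAS2 belong, 9 were tested; 0 rose, 0 fell and 9 did not pass by edgeR, with 6 of 9 negative and a median log2 fold change of -0.19. Epas1, the hypoxia-inducible factor abundant in endothelium, had MOD at 3939 ± 350 and XBS at 3127 ± 381 CPM (SD, n = 5, adjusted p = 0.244), and Arnt, the general dimer partner of the family, at 52.2 ± 11.2 and 42.4 ± 7.64 CPM (SD, n = 5, adjusted p = 0.462). The closest paralogue Arntl2 had 1 to 9 counts per library and was not tested.

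The HES and HEY repressors are the relatives of the DEC proteins and act downstream of Notch. Of 10 listed genes 6 were tested; 0 rose, 0 fell and 6 did not pass by edgeR, with 4 of 6 negative and a median of -0.39. Hey1 ran from 19.8 to 33.7 CPM in MOD and from 12.8 to 19.3 CPM in XBS without overlap (log2 fold change -0.68 ± 0.16, SE, adjusted p = 0.145 by edgeR and 0.0133 by DESeq2), and Hes1 from 67.4 to 108.8 CPM and from 65.2 to 73.1 CPM (edgeR adjusted p = 0.262). Only Hey1 of the 6 had groups apart with XBS lower, as had 1.13% of all tested genes. It was also the only 1 of the 6 that DESeq2 called lower, as were 1.08% of the genes DESeq2 tested.

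Proteins that modify the clock had fold changes of both signs. The list held clock modifiers and coregulators, among them kinases, ubiquitin ligases, acetyltransferases and corepressors. Of its 22 tested genes, 0 rose, 0 fell and 22 did not pass by edgeR, with 12 negative and 10 positive and a median of -0.05. The 2 of smallest p were Btrc, a ubiquitin ligase subunit acting on period proteins (log2 fold change -0.24 ± 0.10, SE, adjusted p = 0.349), and Timeless, a replication fork protein (0.31 ± 0.14, SE, adjusted p = 0.363). Both DEC genes also respond to low oxygen, and of 11 tested hypoxia-induced genes 0 rose, 0 fell and 11 did not pass by edgeR, with 6 positive and a median of 0.0034. Ndrg1 was at 83.2 ± 3.39 and 98.4 ± 12.9 CPM (SD, n = 5, adjusted p = 0.294) and Egln3, an oxygen-sensing hydroxylase, at 4.02 ± 0.907 and 5.26 ± 1.19 CPM (SD, n = 5, adjusted p = 0.448).

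The genes whose log2 CPM was most like each member over the 10 libraries were ranked by Pearson's r, as a description; the libraries share depth, tissue make-up and the group difference. For Arntl they were Hyal2 (r = 0.977), Prx (0.969) and Rasgrp3 (0.968), with r of 0.914, 0.875 and 0.876 once the group means were removed. The 5 XBS values of all 3 lay below the 5 MOD values, as in 1.13% of all tested genes. Means were apart by 1.54-, 1.62- and 1.49-fold, each with edgeR adjusted p = 0.0858. Since these 3 were picked for likeness to Arntl, whose own groups do not overlap, their separation adds no support. For Clock they were Ppp1r10 (0.980), Arl4a (0.956) and Utrn (0.953), and for Npas2 Mex3d (0.926), Eif5b (0.916) and Acsm5 (0.911). For Rora they were Mlxip (0.965), Prkca (0.957) and Cdc23 (0.934), for Bhlhe40 Eif2s3 (0.941), Ap1s3 (0.933) and Myo7a (0.932), and for Bhlhe41 Plxnb2 (0.952) and Slc22a18 (0.947). None of the genes named here was a listed clock gene.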

How the data were processed

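Per the file headers, each gene carries a read count and an FPKM for every library. Deposited counts were whole and not normalized, and deposited FPKM equalled counts divided by gene length and by the library total to within a relative 8.82e-08. The sources used here name no aligner, annotation or rat build; the submitters' processing notes name hg38, GRCh38 and mm10. Without a stated strand, overlapping genes cannot be told apart.

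Counts were filtered with filterByExpr (minimum count 10, total 15), leaving 14320 genes, and compared as XBS over MOD by the robust quasi-likelihood test of edgeR 4.0.16 with TMM factors (R 4.3.3). Adjusted p-values are over all these genes, with a threshold of 0.05; CPM use TMM-scaled library sizes; intervals are 95% and unadjusted. The members, 7 gene lists and 14 marker lists were chosen with earlier results of these data known. Named were the members, Rorb, both clock target lists, the 2 genes of smallest p of each other list, and the 3 genes most like each member by r (log2 CPM, prior count 2). Of the listed genes Npas3, Sirt1, Car9, Foxj1, Pecam1 and Col1a2 were not analysed here, and some items that the rule names are not reported here.

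Alternatives were DESeq2 1.42.0, limma 3.58.1 voom, other scalings and filters, the replicate block and libraries left out. The scripts were tested on simulated data. Start-site sequences are from RefSeq (GRCr8).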

Additional observations from a re-analysis of the deposited data

Results flagged for a closer look

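Among 18 sets of 5 libraries (6 members and 3 ratios in each group), a library that stood far from the other 4 of its group was found in 2, where chance gives about 1 in 20. MOD 5 had 17.0 CPM of Bhlhe41, against 9.03 to 10.7 CPM in the other MOD libraries. The log2 ratio of Arntl to Clock was -1.53 in MOD 3, against -1.23 to -1.14 in the other MOD libraries; MOD 3 also had the most Clock (139 CPM) and the most Nr1d1 (28.1 CPM) of the MOD libraries.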

How the results depend on the processing

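The count of 11 genes past the threshold became 348 by DESeq2 (202 higher and 146 lower), 67 by limma voom with sample weights (43 and 24), 4 to 15 with single libraries left out (4 without MOD 4, XBS 2 or XBS 3, 5 without MOD 2 or XBS 1, and 7 without MOD 3), 3 without XBS 2 and XBS 3, 0 by edgeR without MOD 4 and XBS 5 (1340 genes at an unadjusted p under 0.05) and 1 with the replicate block, where Per1 and Cry1 had adjusted p = 0.0842 and 0.118. The log2 fold change of Arntl passed by DESeq2 (-0.76) and limma voom (-0.80) and by none of the other 17 alternatives. Clock, Npas2 and Bhlhe40 kept their sign and passed in 0 of 19 alternatives each. Rora turned with XBS 2 left out (-0.26 to 0.021 over single libraries, and 0.016 without XBS 2 and XBS 3), Bhlhe41 with XBS 3 left out (-0.058 to 0.31), and Rorb in several runs (-0.49 to 0.28 over single libraries, and 0.12 without XBS 2 and XBS 3). The difference of -0.52 in Arntl over Clock ran from -0.59 to -0.42 without single libraries. Its call could not be tested with the replicate block (-0.52), with XBS 2 and XBS 3 left out (-0.67) or with MOD 4 and XBS 5 left out (-0.49), since the smallest adjusted exact permutation p these designs allow are 0.188, 0.0536 and 0.0857. That of Npas2 over Clock ran from -0.17 to 0.052 with single libraries left out. The cause of these changes was not tested; fewer libraries also allow fewer assignments. Same-numbered libraries correlated at -0.12 to 0.33 in their deviations from the group means over 5 pairs, and 2 of 10 libraries correlated best with their own number, so the numbers were not taken as pairs. Counting error gives Rora a coefficient of variation of about 13.5% in MOD, against 25.8% observed over 5 libraries. The part of depth in this spread was not tested.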
